A study of Rattus norvegicus with 10 samples.

Results

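Retinas of newborn rats of the strains Sprague Dawley (SD) and F344 raised in room air were compared at postnatal day 3 on whole-transcript arrays, with 3 SD pools and 2 F344 pools. All probe sets with 1 gene symbol were taken, 15097 of the 27342 on the array, and each gene was read from its brightest probe set, which gave 14324 genes. Each pool held RNA of 3 rats from 2 litters. The labels name no altered gene. The series holds 5 further arrays of both strains at the same age, 3 of F344 and 2 of SD, from litters kept from within 12 hours of birth in alternating 24-hour periods of 80% and 21% oxygen. The study's design names F344 as resistant and SD as susceptible to oxygen-induced retinopathy, so the room-air pools give the state of both retinas without the exposure. Values are log2 expression values given to 1 decimal, and a difference of 1 is a 2-fold change. A gene is called higher or lower where limma's Benjamini-Hochberg adjusted p over all probe sets was under 0.05.

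The rat retina is immature at this age. Progenitors still divide, rods and bipolar cells are being born, and the superficial vessels are spreading over an inner retina whose deeper layers are still without vessels. F344 is an inbred and SD an outbred albino strain, and rat strains carry different haplotypes of the major histocompatibility complex, called RT1 in the rat. Its class I genes present peptides from inside the cell, with TAP transporters and immunoproteasome subunits that supply those peptides, and its class II genes present peptides taken up from outside.

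The arrays carried the marks of retina. Mean log2 values of the progenitor list lay between 9 and 9.344 in the room-air pools, of the ganglion cell list between 7.967 and 8.119 and of the photoreceptor and bipolar list between 7.854 and 8.207, against array medians of 5.9 to 6. The skeletal muscle list lay between 4.904 and 5.029 and the erythroid list between 5.327 and 5.593. The fibroblast and extracellular matrix list lay above the array medians, between 6.071 and 6.71, and was highest in SD pool 3. On the first principal component (34.1% of the variance) SD room-air pool 3 lay at 36.4 and F344 hyperoxia pool 3 at 30.1, away from all other arrays, which were at or below -1.765. The design text says that an F344 hyperoxia and an SD room-air array were added later, and these pools were taken as those from their numbers. F344 room air holds no such pool, so a later addition is partly confounded with strain in the room-air comparison. SD room-air pool 3 had the lowest cell cycle list mean of the room-air pools (8.476, against 8.795 to 8.935) and the highest lens list mean (5.9, against 5.014 to 5.35). These lists move with that pool, and their part in the strain difference was not tested. The second component, 20.5% of the variance, separated the strains, with F344 arrays at 8.98 to 16.1 and SD arrays at -22.8 to -6.14. In whole retina, fewer cells of a type and less RNA per cell cannot be told apart. Probe sequences were not analysed here, so a strain difference in the sequence under a probe and a difference in RNA level cannot be told apart either.

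In room air, 54 genes (0.377% of the genes tested) were higher in SD and 25 (0.175%) were lower, 79 in all (0.552%). The median called difference was 0.83 for genes higher in SD and -0.83 for genes lower, and 30 genes differed by at least 2-fold, 19 upward and 11 downward. In all 79 called genes the pools of the strains did not overlap, which was also true of 20.7% of all genes tested. Over all genes the median difference was 0, with 6690 genes above 0 and 7105 below, on arrays that the authors' scaling brings to nearly the same median. Crot, with an adjusted p of 0.0498, was the last gene inside the threshold, and Tex26, at 0.0505, was among the nearest outside. Without SD room-air pool 3, 53 genes were higher and 23 lower, and 60 of the 79 were among them. The count rested most on the 2 F344 room-air pools: without pool 1 there were 23 called genes and without pool 2 there were 19, 56 and 60 of the 79 being lost. Leaving out SD room-air pool 2 gave 48 called genes, F344 hyperoxia pool 3 gave 121, SD room-air pool 1 gave 60 with 15 lower, and either SD hyperoxia pool gave 52 with 16 lower. Fitted on the 5 room-air arrays alone, limma called 10 genes, all among the 79: Mospd1, Tap2, Slc26a7, RT1-Bb, Ly6g6e, Car8, Etfbkmt, Oprk1, Tmco3 and Tap1. In all 10 fits that each left out 1 array, 17 genes passed, namely Mospd1, Tap2, Slc26a7, RT1-Bb, Ly6g6e, Ly6g6d, Cd9, Prim1, Pter, Cpne7, Car8, Etfbkmt, Oprk1, Fxyd1, Col5a3, Il33 and Tmco3, and the other 62 lost the call in at least 1.

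**Figure D1:**
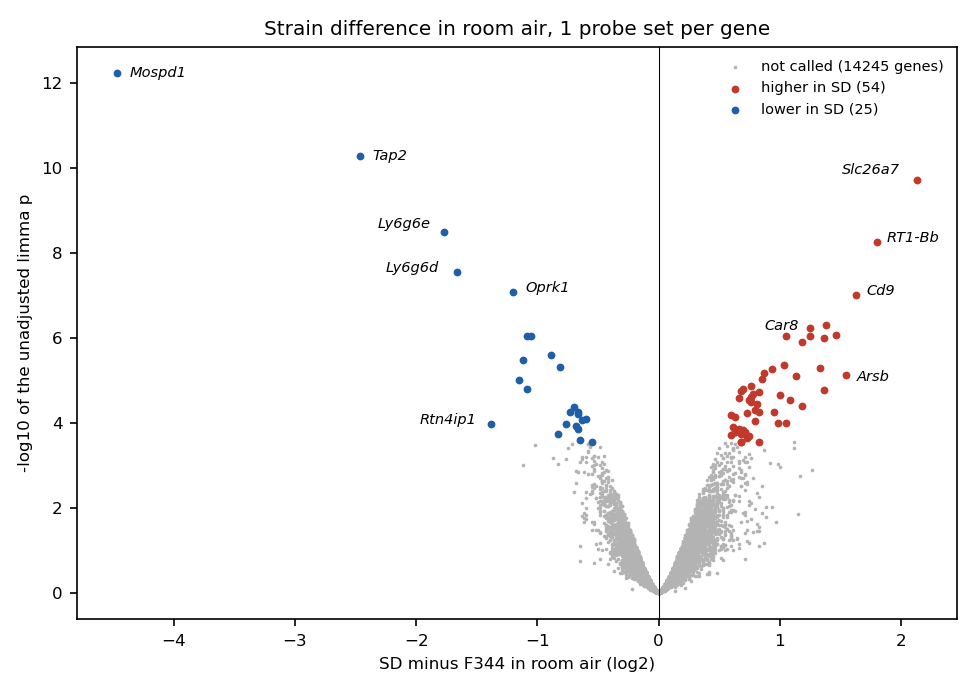
Each point is 1 of 14324 genes, placed by its SD minus F344 difference in room air (log2, horizontal) and the negative log10 of its unadjusted limma p (vertical); red points were called higher in SD (54), blue points lower (25) and grey points were not called. Mospd1 lies alone at the far left, at -4.47.

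The largest difference of all genes with a symbol was that of Mospd1, which encodes a membrane protein with a major sperm protein domain. Its log2 value was 8.9 and 8.9 in the F344 room-air pools and 4.3, 4.6 and 4.4 in the SD pools. The groups were far apart, with the SD pools lower (-4.47, SE 0.144, limma adjusted p = 1.55e-08). A second Mospd1 probe set read 8.6 and 8.6 in F344 and 4.4, 4.7 and 4.5 in SD, a difference of -4.07. Both probe sets moved together from pool to pool, with the same standard deviation in every group (0.153 in the SD room-air pools). The second is therefore not taken as separate evidence. The deposited values do not say which probe sets stood above background, so where a strain reads near 5 or below, as the SD pools do here, the difference is one of deposited values and the fold in RNA is not known. In the hyperoxia arrays Mospd1 stood at 8.7, 9 and 9.1 in F344 and 4.6 and 4.3 in SD, a difference of -4.48.

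Other genes lower in SD belonged to several functions. Oprk1, the kappa opioid receptor, read 5.9 and 5.9 in the F344 pools and 4.7, 4.6 and 4.8 in the SD pools, a difference of -1.20 (SE 0.106, limma adjusted p = 1.55e-04). Il33, an alarmin cytokine, read 7.3 and 7 in F344 and 6.1, 6.1 and 6.1 in SD (-1.05, SE 0.116, adjusted p = 9.34e-04). For both genes all SD pools lay below both F344 pools, and the SD pools of Il33 were equal to the decimal given. Grm6, the metabotropic glutamate receptor with which ON bipolar cells sense photoreceptor transmitter, read 7.5 and 7.6 in F344 and 6.6, 6.8 and 6.6 in SD (-0.88, SE 0.107, adjusted p = 0.00206). Col5a3, a fibrillar collagen chain, differed by -1.08 and Fgd3, an exchange factor for the small GTPase Cdc42, by -1.15. Rtn4ip1, a mitochondrial oxidoreductase, had a larger difference, -1.38, but a larger error (SE 0.245, adjusted p = 0.0261): SD pool 3 was lowest at 6, the other SD pools at 6.6 and 6.5. Fn1, fibronectin, read 9.1 and 9.2 in F344 and 8.4, 8.5 and 8.5 in SD (-0.68), and Adra1b, the alpha-1B adrenoceptor, read 6.5 and 6.7 in F344 and 6, 5.9 and 5.9 in SD (-0.67). Hopx, a homeodomain-only cofactor, Mfsd1, a lysosomal membrane transporter, and Dhx35, an RNA helicase, were lower too, at -0.83, -0.82 and -0.77. A second Mfsd1 probe set gave -0.45 and did not pass (adjusted p = 0.380). The remaining genes lower in SD were Pdia5, Ggta1, Dctd, Pnpla3, Xkr5, Mapk15 and Crot, between -0.73 and -0.55.

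Among genes higher in SD, Slc26a7, an anion transporter, led. It read 5.3 and 5.3 in the F344 pools and 7.4, 7.5 and 7.4 in the SD pools, a higher level (2.13, SE 0.112, limma adjusted p = 1.04e-06). Cd9, a tetraspanin of the cell surface, read 8.2 and 8 in F344 and 9.8, 9.9 and 9.5 in SD (1.63, SE 0.147, adjusted p = 1.79e-04). Both genes had a gap between the strains wider than the range within either. Arsb, the lysosomal enzyme arylsulfatase B, read 7.4 and 7.5 in F344 and 8.6, 8.9 and 9.5 in SD, with SD pool 3 the highest (1.55, SE 0.208, adjusted p = 0.00425), and its other probe set gave 1.47. Prim1, the small subunit of DNA primase, read 9.1 and 8.7 in F344 and 10.5, 10.5 and 10.1 in SD (1.47, SE 0.160, adjusted p = 9.34e-04). Of the 37 measured members of the cell cycle list limma called 0, with 2 (5.41%) at an unadjusted p under 0.05, against 11.4% of all genes.

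Several genes higher in SD act at membranes or in signalling. Rxfp1, a receptor for relaxin, read 7 and 7 in F344 and 8.6, 8.5 and 7.9 in SD (1.33, SE 0.173), with SD pool 3 the lowest of the SD pools. Car8, a carbonic anhydrase-related protein without the enzyme activity, read 5.8 and 5.7 in F344 and 7, 6.9 and 7.1 in SD (1.25, SE 0.137). Fxyd1, a regulator of the sodium pump, read 8.5 and 8.6 in F344 and 9.6, 9.8 and 9.8 in SD (1.18, SE 0.134). In each of these 3 genes no SD pool came within the range of F344. The neuropeptide genes Npy (neuropeptide Y) and Gal (galanin) were both higher in SD, Npy with 7.2 and 7.1 in F344 and 8.2, 8.2 and 8.6 in SD (1.18, adjusted p = 0.0124) and Gal with 7.3 and 7.4 in F344 and 8.1, 8.1 and 8.3 in SD (0.82, adjusted p = 0.0115). Rab3b, a GTPase of secretory vesicles, differed by 1.08, and Cpne7, a calcium-dependent phospholipid-binding copine, by 1.37. Cldn11, a tight junction claudin, differed by 0.85, Wnt7b, a Wnt ligand, by 0.80, Unc5a, a netrin receptor, by 0.68, and Pdpn, podoplanin, by 0.73.

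A further group encodes metabolic enzymes. Spr, sepiapterin reductase of tetrahydrobiopterin synthesis, read 6.6 and 6.4 in F344 and 7.6, 7.7 and 7.3 in SD (1.03, SE 0.132, limma adjusted p = 0.00298). Pygl, a glycogen phosphorylase, differed by 1.13, Phyh, the peroxisomal phytanoyl-CoA hydroxylase, by 1.00, Nit2, an omega-amidase, by 1.05, and Dbi, the acyl-CoA binding protein, by 0.98. Etfbkmt, a mitochondrial lysine methyltransferase, differed by 1.25. Cyp1b1, a cytochrome P450 that is expressed in the eye, read 7.9 and 7.9 in F344 and 8.5, 8.5 and 8.5 in SD (0.60, adjusted p = 0.0181). Opn1sw, the short-wavelength cone opsin, read 8.8 and 8.6 in F344 and 9.5, 9.5 and 9.4 in SD (0.77, adjusted p = 0.00656). Of 46 measured photoreceptor and bipolar list members, 1 was called higher and 1, Grm6, lower, against 0.377% and 0.175% of all genes. Pter and Ccdc107 differed by 1.38 and 1.37 and Tmco3 by 1.05. The remaining genes higher in SD in room air were Rin2, Pyroxd2, Mkks, Plcd4, Rps4y2, Dhtkd1, Irx3, Taf8, Cav2, Cd82, Ccl27, Snx10, Fkbp9, Ube3d, Alg8, Plppr1, Tmlhe, H2ac25, Lingo2, Rbm41, Vps28, Zfp692 and Mrpl4, between 0.60 and 0.95. Rps4y2 is a copy of a ribosomal protein gene family, and its probe set is uncertain. Slc25a24, a mitochondrial carrier, was called at 0.68, while its other probe set gave -0.35 (adjusted p = 0.648).

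**Figure D2:**
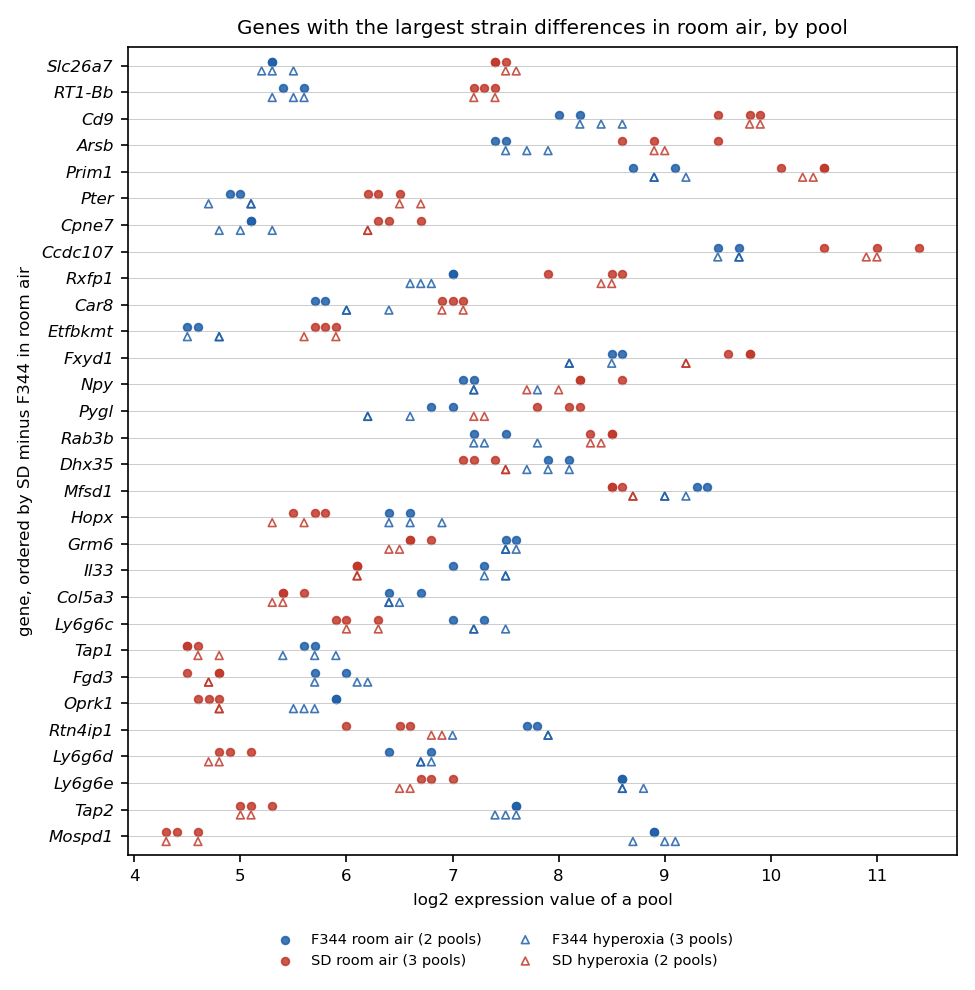
Log2 expression value (horizontal) of every pool for the 15 genes with the largest differences in each direction; filled circles are room-air pools and open triangles hyperoxia pools, blue for F344 and red for SD. The room-air circles of the strains do not overlap in any of these genes, which is part of how they were chosen.

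Within the RT1 complex the strain difference ran both ways. In the order of genes along the chromosomes, 8 of the 79 called genes had another called gene as their nearest measured neighbour, and all 8 lay here, on chromosome 20: Ly6g6d, Ly6g6e and Ly6g6c in 1 run, RT1-Bb, RT1-DOb and Tap2 in another, and Tap1 with Psmb9 in the last. The stretch was described because its genes were called, so it is no test. From Ly6g5b to RT1-Ha it held 55 measured genes, of which 9 were called, beside 0.552% of all genes. Of the 9, 3 were higher in SD and 6 lower (the ninth gene was Msh5, at 0.70). The 46 others were not called.

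Both TAP transporter genes were lower in SD. Tap2 read 7.6 and 7.6 in the F344 pools and 5.1, 5 and 5.3 in the SD pools, a lower level (-2.47, SE 0.116, limma adjusted p = 4.69e-07). Tap1 read 5.7 and 5.6 in F344 and 4.5, 4.6 and 4.5 in SD (-1.12, SE 0.139, adjusted p = 0.00255). Psmb9, an immunoproteasome subunit, read 5.7 and 5.5 in F344 and 5, 5 and 4.9 in SD (-0.63, SE 0.110, adjusted p = 0.0223). Psmb8, another immunoproteasome subunit whose gene lies between Tap2 and Tap1, read 5 and 4.9 in F344 and 5, 4.7 and 4.9 in SD, a difference of -0.08 that did not pass (adjusted p = 0.829). The strains overlapped for Psmb8 and not for the other 3 genes. Of the class II genes, RT1-Bb, a beta chain, was higher in SD, at 5.4 and 5.6 in F344 and 7.4, 7.2 and 7.3 in SD (1.80, SE 0.126, adjusted p = 1.66e-05). RT1-DOb, a chain of the DO molecule that modulates peptide loading, read 5 and 5.2 in F344 and 6, 6.2 and 5.9 in SD (0.93, SE 0.122, adjusted p = 0.00330). RT1-Ba, the alpha chain that pairs with RT1-Bb, read 5 and 4.8 in F344 and 5.1, 5 and 5.4 in SD (0.27, adjusted p = 0.462), and RT1-Da, RT1-Db1, RT1-DMa and RT1-DMb lay between -0.27 and 0.08, none of them passing.

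The Ly6g6 genes, which encode small Ly6-family proteins, were lower in SD. Ly6g6e read 8.6 and 8.6 in the F344 pools and 7, 6.8 and 6.7 in the SD pools (-1.77, SE 0.118, limma adjusted p = 1.22e-05). Ly6g6d read 6.4 and 6.8 in F344 and 4.8, 4.9 and 5.1 in SD (-1.67, SE 0.134, adjusted p = 7.53e-05). Ly6g6c read 7 and 7.3 in F344 and 6, 5.9 and 6.3 in SD (-1.08, SE 0.157, adjusted p = 0.00702). Their neighbour Ly6g6f had a difference of -0.58 and missed the threshold (adjusted p = 0.0668). Over the whole list of RT1 and antigen presentation genes, 2 of 47 measured members were higher in SD and 3 lower, against 0.377% and 0.175% of all genes. The median difference was 0.02, and 13 members (27.7%, against 11.4% of all genes) had an unadjusted limma p under 0.05. RT1 class I genes are near-identical copies that differ between strains, so the values of their probe sets are uncertain. B2m, the light chain shared by class I molecules, had a difference of 0.83 with an adjusted p of 0.377. None of the 26 measured interferon response genes was called by limma at the adjusted threshold, and 5 of them (19.2%, against 11.4% of all genes) had an unadjusted p under 0.05.

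**Figure D3:**
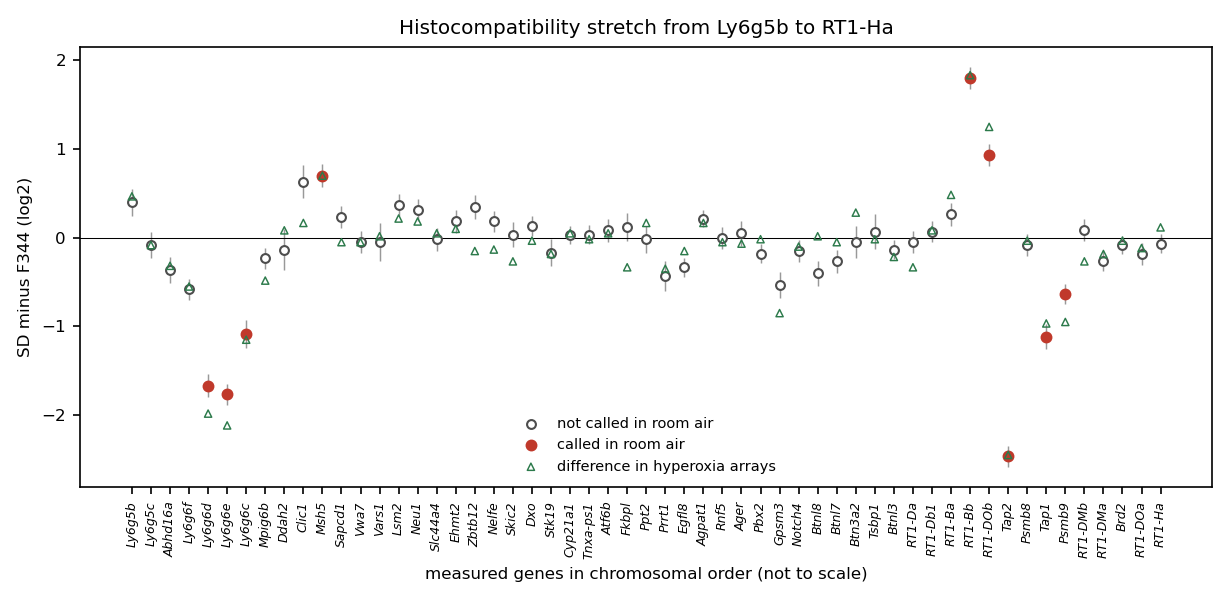
SD minus F344 difference (log2, vertical) of the 55 measured genes from Ly6g5b to RT1-Ha in chromosomal order (horizontal, not to scale); circles show room air with 1 standard error, filled red where called, and triangles the hyperoxia arrays. The Ly6g6 genes, Tap2, Tap1 and Psmb9 lie below 0, RT1-Bb and RT1-DOb above it, and their triangles fall on the same side.

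Reference promoter sequence was examined for motifs known from these genes. The windows are from RefSeq on GRCr8, a BN rat assembly and so neither strain of this study, and run from 250 bases before to 50 after each gene's start. The core of the interferon-stimulated response element, GAAANNGAAA on either strand, was in 3.92% of 33469 such windows. The inverted CCAAT core of the class II Y box, GATTGG on either strand, was in 14.8%. The 4 windows printed here set a called gene beside an uncalled gene of the same pathway, with capitals marking the motif. The interferon element stood in Tap2, called, and in Psmb8, not called, at chr20:4652247-4652546 (minus strand) and chr20:4656982-4657281 (minus strand).
Tap2: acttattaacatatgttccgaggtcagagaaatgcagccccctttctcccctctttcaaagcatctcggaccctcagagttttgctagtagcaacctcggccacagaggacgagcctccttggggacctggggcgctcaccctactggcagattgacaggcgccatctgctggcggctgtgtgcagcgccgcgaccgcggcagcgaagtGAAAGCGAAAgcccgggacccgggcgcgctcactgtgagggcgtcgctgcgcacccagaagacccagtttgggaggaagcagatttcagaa
Psmb8: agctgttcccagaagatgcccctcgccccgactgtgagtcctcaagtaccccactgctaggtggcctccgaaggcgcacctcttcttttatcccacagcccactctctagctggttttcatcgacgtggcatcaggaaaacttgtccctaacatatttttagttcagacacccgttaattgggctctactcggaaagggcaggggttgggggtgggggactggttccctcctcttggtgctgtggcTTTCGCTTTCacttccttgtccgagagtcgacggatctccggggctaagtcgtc
The Y box core stood in RT1-Bb, called, and in RT1-Ba, not called, at chr20:4604069-4604368 (minus strand) and chr20:4576807-4577106 (plus strand).
RT1-Bb: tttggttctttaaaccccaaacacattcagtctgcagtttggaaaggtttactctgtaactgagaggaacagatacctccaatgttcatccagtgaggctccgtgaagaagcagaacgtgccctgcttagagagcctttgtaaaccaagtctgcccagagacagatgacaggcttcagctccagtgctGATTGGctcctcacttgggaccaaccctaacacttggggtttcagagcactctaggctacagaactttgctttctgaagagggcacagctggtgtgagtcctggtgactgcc
RT1-Ba: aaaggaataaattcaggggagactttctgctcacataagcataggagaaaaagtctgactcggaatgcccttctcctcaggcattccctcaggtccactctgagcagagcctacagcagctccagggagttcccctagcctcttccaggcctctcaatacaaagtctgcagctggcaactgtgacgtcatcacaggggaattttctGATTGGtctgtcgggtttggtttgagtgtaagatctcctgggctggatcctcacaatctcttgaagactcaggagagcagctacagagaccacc

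In the stretch, 5 windows of called genes held the interferon core in 2 (Tap2 and Tap1) and the Y box core in 3 (RT1-Bb, RT1-DOb and Psmb9), and 37 windows of genes not called held them in 1 and 11. The other called genes of the stretch, Ly6g6d, Ly6g6e, Ly6g6c and Msh5, had no window. All 5 windows are thus from antigen presentation genes, from which the motifs are known, so the counts do not compare called with uncalled genes. Over all called genes, 62 windows of 60 genes were found, with the interferon core in 4 and the Y box core in 12. These matches describe the reference sequence only, and the same motif was present in genes that were called and in genes that were not.

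The hyperoxia arrays gave a second reading of the same strain difference from pools the room-air comparison did not use, though the estimate of spread is shared between them. Of the 79 genes, 77 had the same direction there and 44 passed, 28 higher and 16 lower in SD (55.7%, against 0.475% of all genes). In 70 of them the hyperoxia pools of the strains did not overlap, in the same direction, against 15.4% of all genes in either direction. The median difference of the genes higher in SD was 0.68 there and that of the genes lower -0.80. Tap2 differed by -2.45 in hyperoxia, Slc26a7 by 2.22, RT1-Bb by 1.83 and Cd9 by 1.45. These values lay close to those in room air. With a pool left out the number passing in both sets ranged from 16 to 51, the lowest without SD hyperoxia pool 2 and the highest without F344 hyperoxia pool 3. It was 18 without SD hyperoxia pool 1, 20 without F344 room-air pool 1 and 19 without F344 room-air pool 2.

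The 2 exceptions in direction were Adra1b and C1qc. Adra1b read 5.5, 5.5 and 5.7 in the F344 hyperoxia pools and 5.8 and 5.8 in the SD hyperoxia pools, so SD was not lower there (0.23, limma adjusted p = 0.755). C1qc, a chain of complement C1q made by microglia, read 5.7 and 5.7 in F344 and 6.3, 6.2 and 6.6 in SD in room air (0.67, adjusted p = 0.0308), and 5.9, 5.9 and 6 against 5.9 and 5.9 in hyperoxia. The other 22 measured microglia markers were not called in room air, where 0.552% of all genes were called. Of all 23, 3 (13.0%, against 11.4% of all genes) had an unadjusted limma p under 0.05. Spr fell short in hyperoxia with 0.15 (adjusted p = 0.900), Npy with 0.45 (0.689) and Fn1 with -0.25 (0.782). The difference between the strain differences in room air and in hyperoxia was tested itself. Limma called 0 genes (0%), with a smallest adjusted p of 0.651. An unadjusted p under 0.05 was found for 2054 of the 27342 probe sets, and for 6.98% of all genes. Of the 79, 17 had an unadjusted p under 0.05. The choice of these genes in the same room-air pools bears on that count, so it cannot be judged against the 6.98%. No gene's strain difference was therefore shown to depend on the oxygen exposure.

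**Figure D4:**
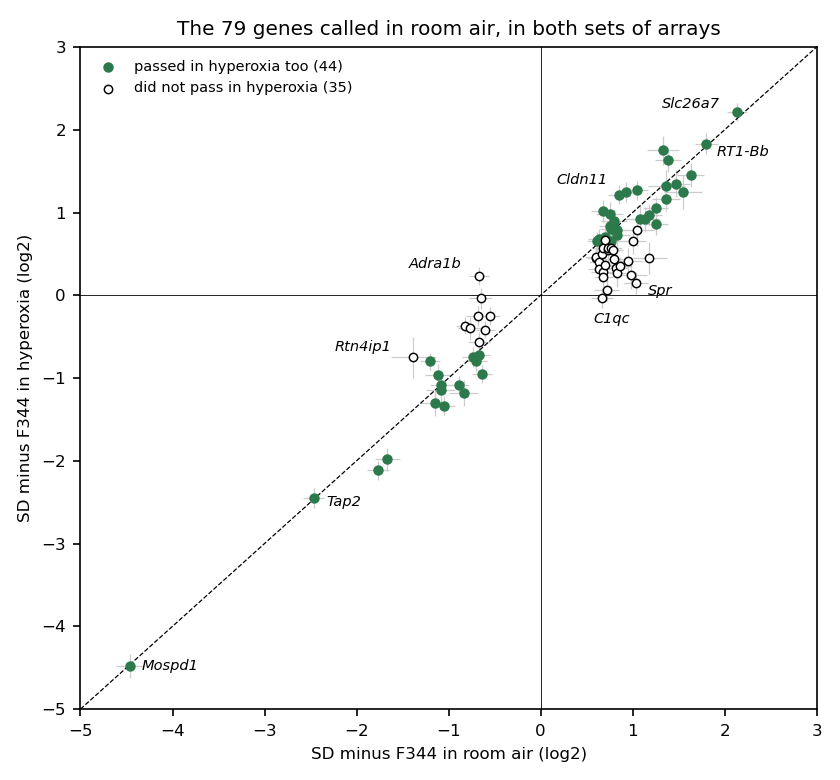
SD minus F344 difference (log2) of the 79 called genes in room air (horizontal) and in the hyperoxia arrays (vertical), with 1 standard error in each direction; green points passed in both (44), open points in room air only (35), and the dashed line marks equal values. Adra1b lies above 0 in hyperoxia (0.23) and below it in room air, and C1qc just under 0 in hyperoxia.

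Gene groups that bear on retinopathy are given beside the 0.552% of all genes that were called. Of 47 measured targets of hypoxia-inducible factor, the oxygen-sensing transcription factor, limma called 0, with 9 (19.1%, against 11.4% of all genes) at an unadjusted p under 0.05, and 33 lay above 0 (median 0.10, against 0 over all genes). Vegfa, the main vessel growth factor of the retina, read 9.5 and 9.9 in F344 and 10, 9.9 and 9.9 in SD (0.23, SE 0.180, adjusted p = 0.652). The strains overlapped for Vegfa. Bnip3, a mitophagy receptor, read 10.4 and 10.3 in F344 and 10.8, 10.7 and 11.2 in SD (0.55, adjusted p = 0.361). Slc16a3, a lactate transporter, differed by 0.48, Hk2, a hexokinase, by 0.13 and Egln3, a HIF prolyl hydroxylase, by 0.28, and none of them passed. In the angiogenic list 0 of 36 members were called (unadjusted, 7 or 19.4%) and in the endothelial list 0 of 25 (unadjusted, 2 or 8.00%), with medians of 0 and 0.03. Of 25 antioxidant genes none was called (unadjusted, 5 or 20.0%), 21 lay above 0 and the median was 0.23. Their room-air means were 8.028 and 7.936 in the F344 pools, 0.092 apart, and 8.1, 8.232 and 8.236 in the SD pools. In the hyperoxia arrays 14 lay above 0 and the median was 0.03. Hmox1, heme oxygenase 1, differed by 0.30 (adjusted p = 0.283) and Ucp2, a mitochondrial uncoupling protein, by 0.53 (adjusted p = 0.124). Of 42 glutathione and detoxification genes Cyp1b1 alone was called (unadjusted, 12 or 28.6%), 29 lay above 0 and the median was 0.16. The F344 room-air pools lay 0.102 apart in that list's mean, and its median in the hyperoxia arrays was 0.01.

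Small differences lay above 0 in most members of some housekeeping lists, without any member passing. Ribosomal protein genes lay above 0 in 64 of 68 cases, with a median of 0.30, and the SD pools lay above both F344 pools in 33 of them (48.5%, against 10.8% of all genes). Their mean log2 value was 10.546 and 10.378 in the F344 pools and 10.656, 10.793 and 10.835 in the SD pools. All SD pools were higher, but the F344 pools lay 0.168 apart, more than SD pool 1 lay from F344 pool 1. Without SD pool 3 the median was 0.25, and without F344 room-air pool 1 and pool 2 it was 0.40 and 0.20. Rps25, with 9.9 and 9.9 in F344 and 10.4, 10.7 and 10.8 in SD, had the largest difference of the list (0.73, adjusted p = 0.165). Respiratory chain genes lay above 0 in 42 of 47 cases (median 0.25), and Cox4i1, a subunit of cytochrome oxidase, read 9.6 and 9.3 in F344 and 10, 10.2 and 10.4 in SD (0.75, adjusted p = 0.108). Without SD pool 3 the median of the respiratory chain list was 0.15, and without F344 room-air pool 2 it was 0.17. In the hyperoxia arrays the medians of the ribosomal and respiratory chain lists were -0.05 and -0.13. Mean ribosomal values there were 10.557, 10.497 and 10.785 in the F344 pools and 10.579 and 10.538 in the SD pools. Mean respiratory chain values were 9.157, 9.126 and 9.449 in F344 and 9.151 and 9.068 in SD. F344 hyperoxia pool 3 was the highest in both lists, so these medians lean on that pool. Limma called 0 members of either list, with 30 (44.1%) and 16 (34.0%) at an unadjusted p under 0.05, against 11.4% of all genes.

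Markers of cell types gave little that passed. The photoreceptor and bipolar list lay above 0 in 34 of 46 members (median 0.14), which became 29 members and a median of 0.10 without SD pool 3. Its median in the hyperoxia arrays was -0.03. In room air 11 members (23.9%, against 11.4% of all genes) had an unadjusted limma p under 0.05. Sag, rod arrestin, differed by 1.12 (adjusted p = 0.0602). Of the progenitor list 0 of 18 were called (unadjusted, 4 or 22.2%, against 11.4% of all genes), with a median of 0.19, and Nes, nestin, read 7.6 and 7.5 in F344 and 8, 8.3 and 7.9 in SD (0.52, adjusted p = 0.116). The cell cycle list had a median of -0.07, which was 0.05 without SD pool 3. Top2a, a topoisomerase of dividing cells, read 11.5 and 11.3 in F344 and 11.3, 11.2 and 10.5 in SD, with SD pool 3 alone low. The fibroblast and extracellular matrix list lay above 0 in 18 of 21 members (median 0.25), which became 11 members and a median of 0.05 without SD pool 3, and Fn1, its called member, was lower. Ganglion, amacrine and horizontal cell lists had medians of 0.10 and 0.07 and no called member. Tyrp1, a pigment enzyme, read 5.9 and 6.2 in F344 and 6.4, 7 and 7.4 in SD (0.88, adjusted p = 0.269), and Hbb-b1, a beta globin, 6 and 6.4 in F344 and 6.6, 7.7 and 7.8 in SD (1.17, adjusted p = 0.136). Globin genes are near-identical copies, and their probe sets are uncertain.

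**Figure D5:**
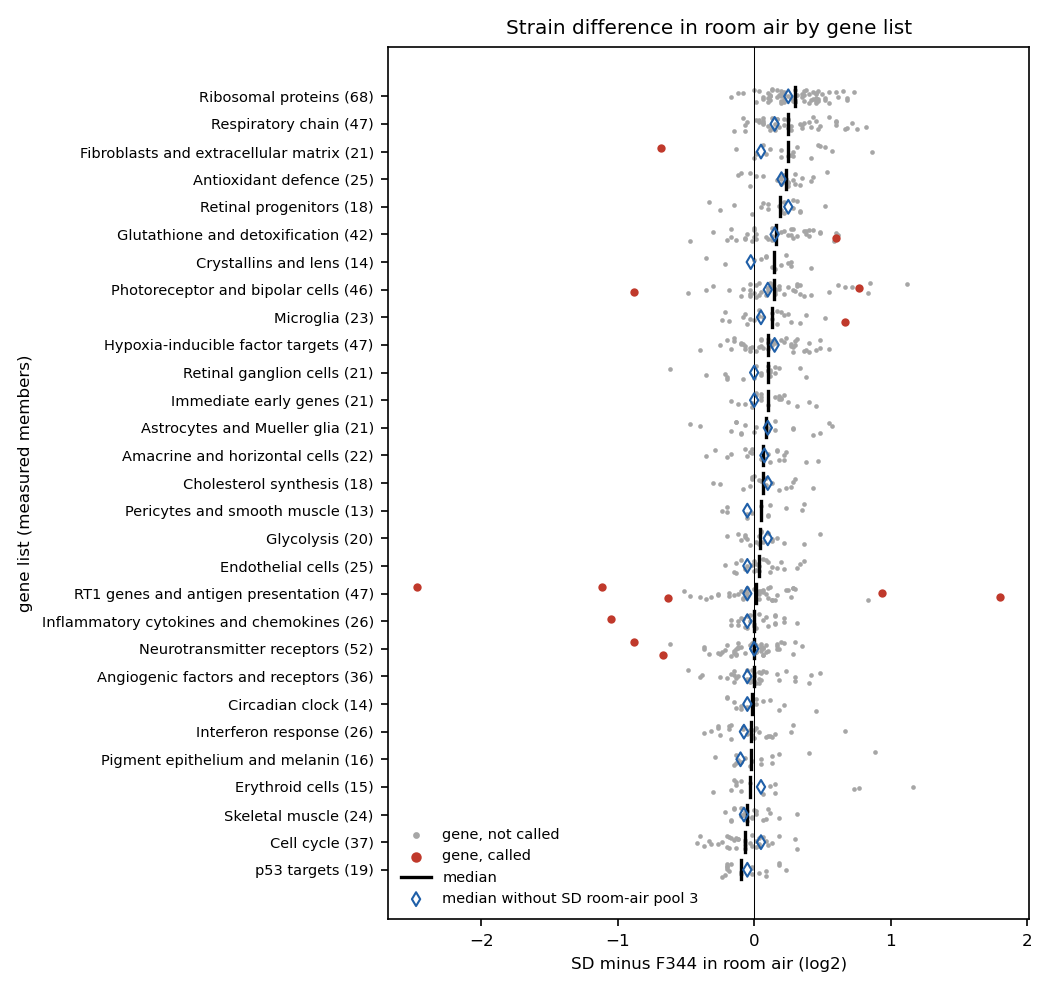
SD minus F344 difference in room air (log2, horizontal) of each measured gene in 29 lists (vertical, with the number measured); grey points were not called, red points were, bars are list medians and diamonds the medians without SD room-air pool 3. No list median lies further than 0.30 from 0.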

How the data were processed

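The labels name Affymetrix whole-transcript labelling, and each array held 1 pool of retinal RNA. The authors deposited a log2 value for each probe set and array, rounded to 1 decimal. Tools listed, per the submitters' processing notes, are RMA and Partek 6.4, without role or order. What annotation and scaling they used is not stated there. Rounding hides small differences, and precision is limited by how few arrays there are. Pools of different rats served as biological replicates, per the labels' design text.

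A limma 3.58.1 group-means model (R 4.3.3) took all 10 arrays and 27342 probe sets (6 residual degrees of freedom), with eBayes, two-sided tests and Benjamini-Hochberg adjustment over all probe sets at 0.05. Contrasts were SD minus F344 in room air, in hyperoxia, and their difference. Of the probe sets, 323 had several symbols and 11922 none, and 499 genes had several probe sets. Symbols were updated through the gene table of GRCr8, where 15067 matched. The method was tested on simulated data. Named genes were the 15 largest called differences in each direction, up to 4 called members of each of 30 lists (2 with the largest change where none was called), all called RT1 list genes, runs of neighbouring called genes and 9 set genes; others were chosen after their values were seen. Sex-linked markers had 0 measured members. Members and lists were chosen with earlier results of these data known. Arrays numbered 3 were taken as those added later, an inference. Alternatives covered the arrays fitted, a term for the arrays numbered 3, dim probe sets, variance model, scaling, array weights, probe sets per gene, the replicate number and each array left out.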

Additional observations from a re-analysis of the deposited data

Results flagged for a closer look

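For 6 of the 87 named genes the strain difference ran one way in every room-air pool and the other way in every hyperoxia pool. The same held for 131 of all 14324 genes (0.915%). Named genes were picked by their values in these arrays, or set with earlier results of these data known. The count of 6 therefore cannot be judged against that share. The room-air minus hyperoxia difference was 1.45 for Bnip3, a mitophagy receptor: the room-air pools read 10.4 and 10.3 in F344 and 10.8, 10.7 and 11.2 in SD, and the hyperoxia pools 9.8, 10.2 and 10.6 in F344 and 9.1 and 9.5 in SD. It was 1.35 for Egln3, a HIF prolyl hydroxylase, with 6.7 and 6.8 in F344 and 6.9, 6.9 and 7.3 in SD in room air and 6, 7.2 and 6.5 in F344 and 5.4 and 5.6 in SD in hyperoxia. It was 0.98 for Bhlhe40, a clock-linked repressor, with 5.9 and 5.6 in F344 and 6.1, 6.2 and 6.3 in SD against 5.9, 6.3 and 5.9 in F344 and 5.7 and 5.3 in SD. Cox4i2, the oxygen-responsive isoform of a cytochrome oxidase subunit, gave 0.92, with 8.7 and 8.8 in F344 and 9, 9.3 and 9.4 in SD against 8.1, 8.1 and 8.5 in F344 and 7.7 and 7.9 in SD. Igfbp2, which binds insulin-like growth factors, gave 0.98, with 8.2 and 8.2 in F344 and 8.4, 8.5 and 8.6 in SD against 7.1, 7.4 and 7.5 in F344 and 6.6 and 6.7 in SD. In these 5 genes SD was the higher strain in room air and the lower in hyperoxia. Adra1b gave -0.90, the other way round. Limma's test of each of these 6 differences had an adjusted p of 0.651, so none passed. Igfbp2 was lower in SD in the hyperoxia arrays (adjusted p = 0.0380) and Adra1b lower in SD in room air, and no other strain difference of these 6 genes passed in either set of arrays.

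Probe sets with no gene symbol in the annotation gave 69 calls in room air, 42 higher and 27 lower in SD, which is 0.579% of the 11922 such probe sets, against 0.556% of all probe sets. Probe set 10722435 read 5 and 5.2 in the F344 pools and 9.8, 9.5 and 8.8 in the SD pools, a difference of 4.27 (SE 0.222, limma adjusted p = 1.04e-06), and differed by 4.38 in hyperoxia. Probe set 10801411 differed by 2.35. Probe sets 10806501 and 10809872 hold the same values in every array (-2.20), so they are not separate evidence. Others have close numbers, such as the called probe sets from 10903273 to 10903300, all lower in SD. Whether such calls come from separate transcripts was not tested.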

How the results depend on the processing

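No called gene changed direction under any alternative run: of 1641 values, 1255 stayed on the same side of the threshold and 386 lost it. The count higher and lower in SD, 54 and 25, and the 44 also passing in hyperoxia became 5, 5 and 5 with only the arrays of the groups compared; 137, 79 and 86 with a term for the arrays numbered 3; and 99, 60 and 81 with array weights. With the brighter probe sets only, 14 were lower and 29 passed in both, 18 of the 79 not being tested. With 1 array left out, the counts ranged from 11 to 83 higher, 8 to 38 lower and 16 to 51 in both. The room-air groups share the numbers 1 and 2, whose deviations from the group means correlated at -0.0047 and -0.073. With so few pools this cannot show whether same-numbered pools share more than a number. Between F344 hyperoxia and SD room air the same-numbered pools correlated at 0.31, 0.40 and 0.64, each pool best with its own number. As deviations are centred within a group, the pools numbered 3 bear on the values of pools 1 and 2. The design names no such pairing, and it was not tested. With the replicate block the counts were 107, 65 and 76. The test of the difference between room air and hyperoxia called 0 of the 79 genes under every alternative in which it could be fitted. In the fit reported, 17 of them had an unadjusted p under 0.05, where 6.98% of all genes did. These genes were chosen in the same room-air pools, so that count cannot be judged against this share. Trend and robust eBayes, both scalings and both treatments of several probe sets per gene kept the counts within 1.5 times. Of the genes not called, Cryab (0.42) became -0.20 without both arrays numbered 3 and ranged from -0.20 without SD room-air pool 3 to 0.85 with 1 array left out, and Myl11 (0.32) ranged from -0.033 without F344 room-air pool 1 to 0.67. Of 580 list medians 34 moved by more than the spread between replicates. Causes were not tested. Values rounded to 1 decimal and 2 pools of F344 limit what a room-air comparison can resolve, and the signal of single probes was not analysed here.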
